A study of Mus musculus with 24 samples.

Results

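The genes described here are 40 members of the Wnt pathway and of the gene program of intestinal stem cells, chosen by name. They comprise 7 crypt base and stem cell markers, 5 feedback inhibitors, 7 other targets, 5 genes of the transcription and destruction complexes, 5 secreted antagonists, 7 genes for ligands, ligand processing and R-spondin, and 4 receptors. Of the 40 members, 39 were matched through the accession of a probe, among 45616 gene names on the array, and Olfm4 was matched to no probe. Levels are log2 processed signals after quantile normalization over 24 arrays, and each gene stands for its brightest probe.

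RNA came from colon (its distal part, per the methods) of C57BL/6J mice bought at 7 weeks of age, with 4 arrays in each of 6 groups. The methods speak of animals chosen for a body weight near the group mean, and each array is taken here as 1 animal, which the labels do not state. The groups were M + LFD and M + HFD (sham-operated males), F + LFD and F + HFD (sham-operated females), and F(OVX) + LFD and F(OVX) + HFD (ovariectomized females, OVX). LFD held 10 kcal% fat and HFD 45 kcal% fat, both fed for 14 weeks. Every mouse in all 6 groups had received 10 mg/kg of the carcinogen azoxymethane and 3 cycles of 1.5% dextran sulfate sodium, which inflames the colon, and was killed 75 days after azoxymethane, so no group stands for a healthy colon. The RNA is of whole tissue, in which fewer cells of a type and less RNA per cell cannot be told apart.

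In the crypts of the colon, Wnt proteins bind Frizzled receptors with Lrp5 or Lrp6 and stop the destruction complex from degrading beta-catenin, which then enters the nucleus and switches on target genes together with TCF and LEF proteins. This signal maintains stem cells at the crypt base, and R-spondins from the surrounding stroma amplify it through Lgr receptors. Many target genes encode inhibitors of the pathway itself, so the level of Axin2, Nkd1, Notum, Rnf43 and Znrf3 is often read as a record of Wnt activity. In most human colorectal tumors, and in tumors that azoxymethane causes in mice, the pathway is switched on by mutation.

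A probe counted as detected where the scanner software called it well above background, which was so for 40.5% to 61.9% of all probes per array. No spot was saturated, and the 75th percentile of the processed signal lay between 125 and 669 scanner units. Males, females and OVX females were hybridized on a slide of their own, and on each slide the LFD arrays filled row 1 and the HFD arrays row 2. Diet therefore cannot be told apart from slide row, nor sex or surgery from slide. The 10 epithelial markers were tested in every comparison, and their mean log2 level lay between 13.63 and 14.38 on all arrays. Hoxb13, a gene of the distal colon, stood at 2.18 on M + LFD replicate 1 and 5.04 on M + LFD replicate 2. On the other M + LFD arrays it stood at 13.24 and 13.66, on M + HFD arrays at 14.79, 14.32, 13.37 and 13.90, and on the 16 female arrays between 12.58 and 14.50. The labels give the same tissue for all arrays, and the main male results are therefore also given without M + LFD replicates 1 and 2.

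Of the 39 members with a probe, 27 were detected on all 24 arrays, 11 on some and 1 on none. Wnt3, a ligand best known from Paneth cells of the small intestine, was the member detected on no array. Wnt10a was detected on 2 arrays, and Wnt2b and Dkk2 on 3 each. Axin2, the scaffold protein of the destruction complex, was detected on 8 of 8 male, 5 of 8 female and 3 of 8 OVX arrays. Fzd10, a Frizzled receptor, was detected on 5 of 8 male, 4 of 8 female and 0 of 8 OVX arrays. A member was tested in a comparison of HFD with LFD where its probe was detected on all 4 arrays of either group, which held for 34 members in males, 33 among females and 30 after OVX.

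**Figure D1:**
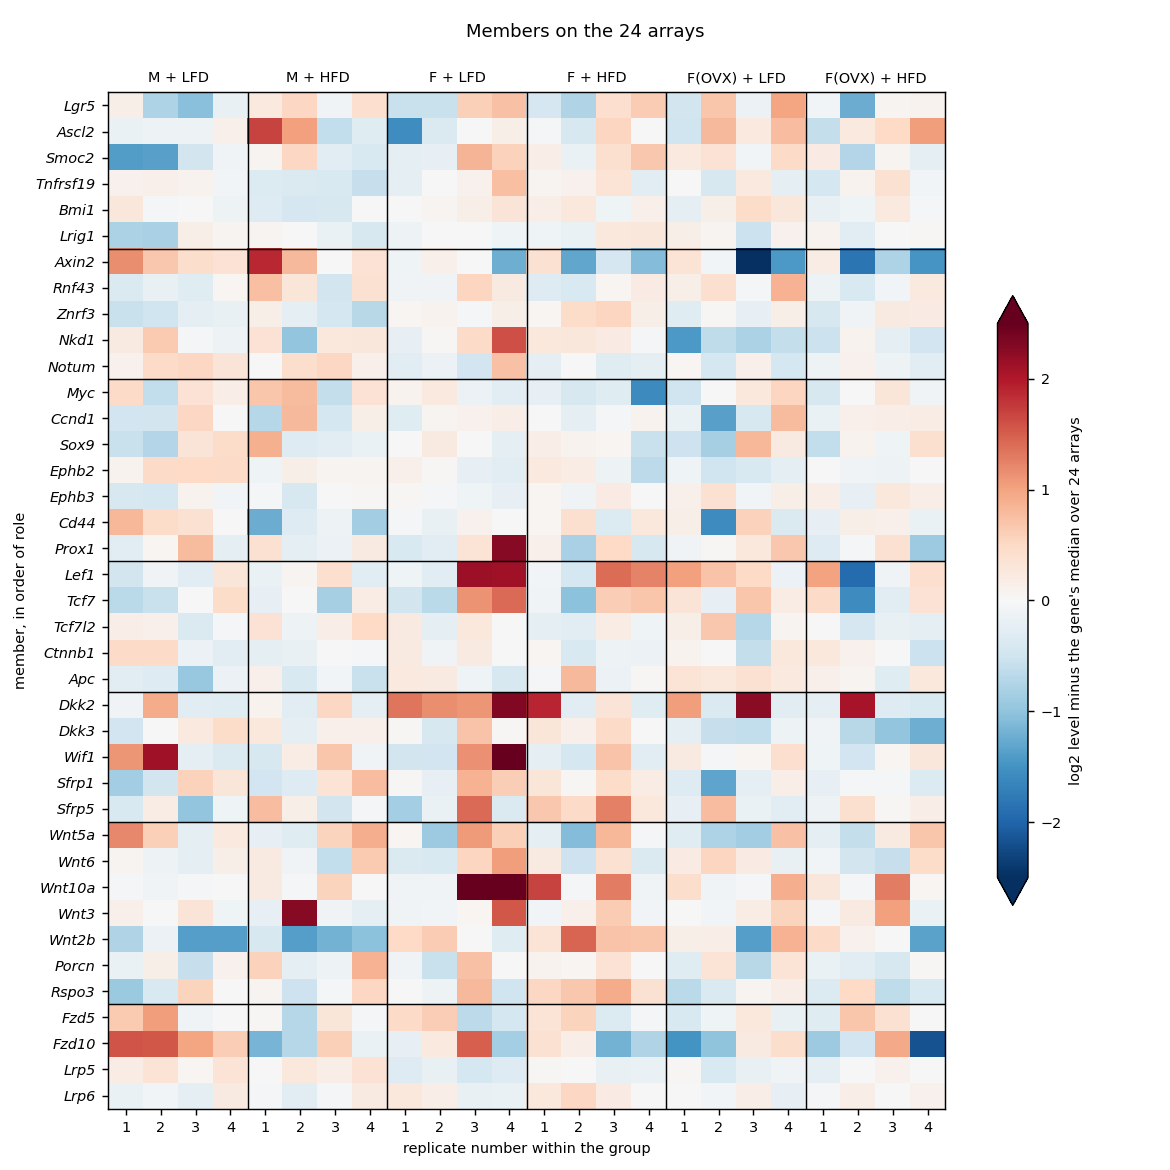
Log2 level of the 39 members (rows, grouped by role) on the 24 arrays (columns, by group and replicate number) as the difference from the gene's own median over the 24 arrays, with red above and blue below it. F + LFD replicates 3 and 4 hold the highest value of 14 of the 38 members detected anywhere (the share of all genes was not counted), while rows such as Lrp6, Lrp5 and Ephb3 stay within 0.82 between their lowest and highest array.

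The comparison of HFD with LFD in males asks which genes differ between diets in that sex. In M + HFD, Lgr5 and Smoc2 were higher than in M + LFD, and Cd44 and Fzd10 were lower. These were the 4 DEGs (11.8%) among 34 members tested, of which Fzd10 entered the test only through M + LFD, where it is high, so the filter favored a difference. Lef1, Apc and Sfrp5 entered only through M + HFD and were not DEGs. Without Fzd10 the DEGs were 3 of 33 (9.09%). A DEG is a gene that differs by 1.5-fold or more with p below 0.05 before adjustment, the cut-offs named in the study's methods, here with limma's p. Over all 20516 genes tested in males, 4.3% were DEGs. By p alone, 6 members passed, beside 6.1% of all genes, and the methods' t-test called 2 members, beside 2.38% of all genes. No member passed an adjusted p of 0.05, the smallest being 0.8 by limma, and the same held for all genes tested. The median change of the 34 members was 0.06 on the log2 scale, beside 0.01 for all genes, with 20 members higher and 14 lower. Without M + LFD replicates 1 and 2 the DEGs were Lgr5, Cd44 and Fzd10 (8.82% of 34), beside 4.13% of all genes, and the median change of the members was -0.05, with 14 higher and 20 lower. In that fit 14 of the 34 members had the opposite sign, none of them a DEG in either fit.

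Lgr5, the R-spondin receptor that marks the stem cells of the crypt base, stood at 7.54, 6.62, 6.35 and 7.21 in M + LFD and at 7.64, 7.91, 7.31 and 7.82 in M + HFD. M + LFD replicate 1 lay within the M + HFD values, so the groups overlapped. The means were 6.93 ± 0.54 and 7.67 ± 0.27 (SD, n = 4 each), a change of 0.74 ± 0.28 (SE) in log2, with an unadjusted p of 0.0266 and an adjusted p of 0.8 by limma. An exact permutation test gave p = 0.0571, two-sided, and the methods' t-test an unadjusted p of 0.0503. Without M + LFD replicates 1 and 2 the change was 0.89 and Lgr5 was still a DEG. It was no longer a DEG after leaving out M + LFD replicate 2 (0.63) or 3 (0.55), or M + HFD replicate 2 (0.66) or 4 (0.69).

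Smoc2, a secreted calcium-binding protein expressed by the same stem cells, stood at 9.70, 9.75, 10.64 and 11.01 in M + LFD and at 11.18, 11.62, 10.83 and 10.72 in M + HFD. Its lowest values were those of M + LFD replicates 1 and 2, the arrays with low Hoxb13, and the other M + LFD arrays lay close to or within the M + HFD values. The change was 0.81 ± 0.34 (SE) in log2 over all 8 arrays, with an unadjusted p of 0.0419 by limma. The exact permutation p was 0.114, two-sided, and the methods' t-test gave an unadjusted p of 0.0785. The change was 0.26 (unadjusted p = 0.398 by limma) without those 2 arrays, and 0.04 (unadjusted p = 0.902 by limma) with a score of the Hox genes as a covariate. Leaving out M + LFD replicate 1 (0.62) or 2 (0.64), or M + HFD replicate 1 (0.78) or 2 (0.64), also ended the call. A dimmer Smoc2 probe moved by 0.76.

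Tnfrsf19, a receptor of the TNF family that is a Wnt target in stem cells, stood at 6.20, 6.22, 6.19 and 6.03 in M + LFD and at 5.75, 5.73, 5.72 and 5.52 in M + HFD. All M + LFD arrays lay above all M + HFD arrays. The change of -0.48 ± 0.12 (SE) in log2 had an unadjusted p of 0.00415 by limma. The exact permutation p was 0.0286, two-sided, the smallest that 70 assignments allow. Groups that do not overlap always give this value, so it restates the separation and is no further test. The change stayed under 1.5-fold, so Tnfrsf19 was not a DEG. The mean of both its probes changed by -0.60 and passed the thresholds, and the brighter one changed by -0.43 without M + LFD replicates 1 and 2.

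The remaining stem cell markers were not DEGs. Ascl2, a transcription factor of the crypt base stem cells, stood at 10.56, 10.59, 10.60 and 10.84 in M + LFD. In M + HFD it was spread over 12.41, 11.74, 10.10 and 10.41, of which the first pair lay above every M + LFD array and the second pair below. Its change of 0.52 ± 0.47 (SE) in log2 had an unadjusted p of 0.305 by limma. Lrig1, a brake on growth factor receptors, was lower on M + LFD replicates 1 and 2 (11.62 and 11.60) than on any other male array. Bmi1, a Polycomb protein, changed by -0.31 (unadjusted p = 0.075 by limma).

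Among the other targets, Cd44 had the clearest separation. Cd44, a hyaluronan receptor of crypt cells and of lymphocytes, stood at 8.85, 8.48, 8.40 and 8.03 in M + LFD and at 6.77, 7.70, 7.88 and 7.15 in M + HFD. Every M + LFD array lay above every M + HFD array. The change was -1.07 ± 0.28 (SE) in log2, 2.09-fold lower in M + HFD, with an unadjusted p of 0.00441 by limma. The exact permutation p of 0.0286, two-sided, only restates that the groups did not overlap. Another probe detected on all 24 arrays, about as bright, changed by -1.19 (exact permutation p = 0.0571, two-sided). A dim one, detected on 4 arrays, changed by -1.54 (exact permutation p = 0.0857, two-sided). On both of these probes the male diet groups overlapped. Without M + LFD replicates 1 and 2 the change was -0.84 and still passed, while with the Hox score as a covariate it was -0.58 (unadjusted p = 0.113 by limma).

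T cell and NK cell markers were lower in the same direction, with 8 of 8 tested lower and 1, Cd3g, a DEG. Their mean log2 level lay between 7.70 and 9.04 on M + LFD and between 7.37 and 7.89 on M + HFD arrays, highest on M + LFD replicates 1 and 2. Their part in the change of Cd44 was not tested. All 13 proliferation genes were lower in M + HFD too, with a median of -0.73 in log2, and 0 of them were DEGs. When M + LFD replicates 1 and 2 were left out, 7 of the 8 T cell and NK cell markers were lower (median -0.25, 0 DEGs), and all 13 proliferation genes were lower with a median of -1.40 and 8 DEGs.

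Fzd10 stood at 6.03, 6.01, 5.44 and 5.07 in M + LFD and at 3.28, 3.73, 5.05 and 4.29 in M + HFD. The groups did not overlap, by a margin of 0.02 between M + LFD replicate 4 and M + HFD replicate 3. It was detected on 4 of 4 M + LFD arrays and on 1 of 4 M + HFD arrays. The exact permutation p of 0.0286, two-sided, only restates that the groups did not overlap. The change of -1.55 ± 0.39 (SE) in log2 had an unadjusted p of 0.00363 and an adjusted p of 0.8 by limma. Because it entered the test only through M + LFD, where it is high, and reads near background in M + HFD, its size is uncertain, and under normexp background correction it was -0.51. Without M + LFD replicates 1 and 2 it was -1.17 and still passed, and with the Hox score as a covariate it was -0.79 (unadjusted p = 0.0997 by limma).

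Cd44, Fzd10 and Tnfrsf19 were the 3 of 34 members whose male diet groups did not overlap, beside 2.6% of all genes tested, and for Fzd10 the filter itself favored this. The count is of brightest probes, and on the other probes of Cd44 and Tnfrsf19 the groups overlapped. A dimmer Tcf7l2 probe changed by 0.48 in males without overlap, from which its exact permutation p of 0.0286, two-sided, follows. The brightest Tcf7l2 probe changed by 0.25 with overlap. The other receptors in males were Fzd5 at -0.51 (unadjusted p = 0.135 by limma), Lrp5 at -0.04 and Lrp6 at 0.02. Wif1, a secreted protein that captures Wnts, was high on M + LFD replicates 1 and 2 (7.71 and 8.72), against 6.37 and 6.24 on the other M + LFD arrays and 6.20 to 7.29 in M + HFD. Its change was -0.56 with all arrays and 0.39 without those 2, and neither passed the thresholds. Ctnnb1, the gene of beta-catenin, moved from -0.25 to 0.09 in the same way.

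**Figure D2:**
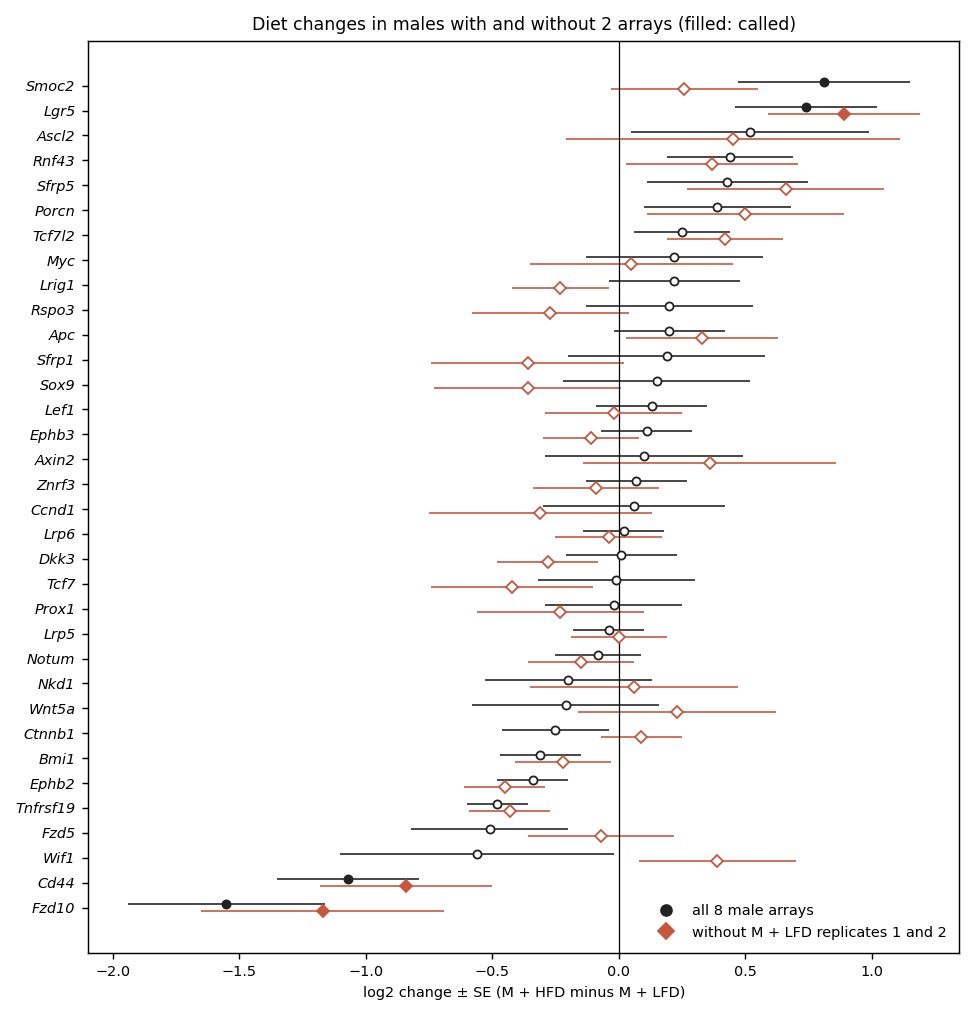
Change of the 34 members tested in males, in log2 (M + HFD minus M + LFD) with its SE, over all 8 arrays (circles) and without M + LFD replicates 1 and 2, on which Hoxb13 was low (diamonds), with filled symbols for DEGs. Cd44 stays at -0.84, Fzd10 at -1.17 and Lgr5 at 0.89, whereas Smoc2 moves from 0.81 to 0.26 and Wif1 from -0.56 to 0.39.

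None of the 5 feedback inhibitors was a DEG in males. Axin2 stood at 5.67 ± 0.36 (SD, n = 4) in M + LFD and at 5.78 ± 0.82 in M + HFD. Notum, an enzyme that inactivates Wnts by removing their lipid, changed by -0.08, and Nkd1, which binds Dishevelled, by -0.20. Znrf3, a ubiquitin ligase that clears Frizzled receptors from the cell surface, changed by 0.07. Its relative Rnf43 stood at 10.16, 10.34, 10.23 and 10.57 in M + LFD and at 11.27, 10.83, 10.07 and 10.90 in M + HFD, so that 3 of 4 M + HFD arrays lay above all M + LFD arrays and M + HFD replicate 3 below them. Its change was 0.44 ± 0.25 (SE) in log2 (unadjusted p = 0.111 by limma), and it became a DEG at 0.68 without M + HFD replicate 3.

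No other target or antagonist was a DEG in males. Myc, a driver of growth, changed by 0.22 ± 0.35 (SE) in log2, Ccnd1 (cyclin D1) by 0.06 and Sox9, a transcription factor of crypt progenitors, by 0.15. Ccnd1 stood at -0.31, Sox9 at -0.36 and Myc at 0.05 when M + LFD replicates 1 and 2 were left out. Ephb2, a receptor that sorts cells along the crypt, stood at 10.92, 11.30, 11.32 and 11.31 in M + LFD and at 10.72, 10.97, 10.89 and 10.89 in M + HFD, a change of -0.34 (unadjusted p = 0.0416 by limma) that stayed under 1.5-fold, with 1 M + LFD array inside the M + HFD values. Sfrp1 and Sfrp5, secreted decoys for Wnts, changed by 0.19 and 0.43, and Dkk3, of the Dickkopf family, by 0.01. Wnt5a, a ligand of the stroma that mainly signals without beta-catenin, changed by -0.21. The signs of Sfrp1 (-0.36), Dkk3 (-0.28) and Wnt5a (0.23) were the opposite ones in the fit that left out M + LFD replicates 1 and 2, where Sfrp5 stood at 0.66.

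Beta-catenin reaches DNA through TCF and LEF proteins, which bind the core CTTTGA, so the promoters of the members were searched for it. The core was searched on both strands, as CTTTGA or TCAAAG, in the 250 bases before each RefSeq transcript start of the build GRCm38.p6. It was found in 2 of 33 promoters of 24 members (6.06%), against 13.8% of all 32851 promoters in the same table. Printed below are the windows of the 3 members whose male diet groups did not overlap and the other window that held the core, that of Lef1. They are of Cd44 (chr2:102901666-102901915, minus strand), Fzd10 (chr5:128600856-128601105, plus strand), Tnfrsf19 (chr14:61037988-61038237, minus strand, 1 of 2 listed starts) and Lef1 (chr3:131156044-131156293, plus strand, 1 of 4 listed starts, downstream of the other 3), each written 5′ to 3′ along its gene and ending next to the start. Capitals mark the core, which lies 201 bases before the start in Tnfrsf19 and 180 and 120 bases before it in Lef1, and the windows of Cd44 and Fzd10 hold no match.
Cd44: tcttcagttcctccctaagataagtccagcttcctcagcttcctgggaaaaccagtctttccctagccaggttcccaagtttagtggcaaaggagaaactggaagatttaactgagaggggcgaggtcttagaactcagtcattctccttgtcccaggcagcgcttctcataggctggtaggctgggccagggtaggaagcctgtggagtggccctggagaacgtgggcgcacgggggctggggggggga
Fzd10: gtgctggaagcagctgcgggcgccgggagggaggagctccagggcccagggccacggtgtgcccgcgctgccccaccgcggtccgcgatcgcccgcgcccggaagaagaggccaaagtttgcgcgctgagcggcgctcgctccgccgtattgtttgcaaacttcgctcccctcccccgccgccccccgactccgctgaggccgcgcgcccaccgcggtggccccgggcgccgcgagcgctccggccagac
Tnfrsf19: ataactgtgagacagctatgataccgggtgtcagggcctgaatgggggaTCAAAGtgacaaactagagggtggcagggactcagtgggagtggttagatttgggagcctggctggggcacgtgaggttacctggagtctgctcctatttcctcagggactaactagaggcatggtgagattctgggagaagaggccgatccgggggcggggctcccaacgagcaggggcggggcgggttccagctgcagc
Lef1: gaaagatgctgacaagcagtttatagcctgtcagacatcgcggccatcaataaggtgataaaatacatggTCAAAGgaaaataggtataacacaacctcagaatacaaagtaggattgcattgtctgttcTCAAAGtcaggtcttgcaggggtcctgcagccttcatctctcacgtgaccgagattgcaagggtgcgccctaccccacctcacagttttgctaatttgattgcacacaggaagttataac

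In females, no member was a DEG between F + HFD and F + LFD in the fit without a block, and 1, Myc, was with the replicate number as block. Without the block limma called 0 of 33 members tested, beside 1.2% of all 22085 genes, and 0 had an unadjusted p under 0.05, beside 2.91%. The methods' t-test also called 0, beside 0.566%. No member's diet groups were separated, beside 1.9% of all genes tested. The median change of the members was -0.06 in log2, with 14 higher and 19 lower, and the largest in either direction were Wif1 at -0.82 ± 0.72 (SE) and Sfrp5 at 0.66 ± 0.46.

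The stem cell markers and Cd44 differed by little in females. Lgr5 stood at 6.84, 6.84, 7.99 and 8.13 in F + LFD and at 6.98, 6.64, 7.82 and 8.03 in F + HFD, a change of -0.08 ± 0.42 (SE) in log2. Replicates 3 and 4 were the higher ones in both diet groups, and this spread within a group was larger than the difference between diets. Smoc2 changed by 0.02, Tnfrsf19 by -0.10 and Cd44 by 0.13, and Ascl2 by 0.46 ± 0.38 (SE). Same-numbered female arrays deviated together over all genes, and the replicate number is the column on the slide. From pair to pair of the same number, 3 of 33 members were higher in F + HFD in all 4 pairs (Rspo3, Lrp5 and Znrf3) and 5 were lower in all 4 (Myc, Rnf43, Wnt5a, Ctnnb1 and Tcf7l2). The share of all genes was not counted, so these counts are not a result about the members. Dimmer probes of Tcf7l2 (0.24, 0.41 and 0.23), Ctnnb1 (0.37), Wnt5a (0.14, near background) and Znrf3 (-0.14) changed the other way. Dimmer probes of Myc (-0.53) and Znrf3 (0.27) changed the same way. With the block, 3 members had an unadjusted p under 0.05 by limma, beside 7.38% of all genes. They were Myc, Rspo3 (0.58 ± 0.17, SE) and Wnt5a (-0.34 ± 0.13), of which the last pair stayed under 1.5-fold.

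Myc was the target with the largest change in females among those detected on every array. It stood at 9.50, 9.66, 9.27 and 9.14 in F + LFD and at 9.21, 9.01, 9.12 and 7.82 in F + HFD. F + HFD replicate 4 lay below every other array of the 24, and the remaining F + HFD arrays overlapped with F + LFD. The change was -0.60 ± 0.31 (SE) in log2 (unadjusted p = 0.0865 by limma), and in the fit blocked by replicate number it had an unadjusted p of 0.0367 and an adjusted p of 0.666 by limma, which made Myc the 1 member called in that fit, beside 2.66% of all genes.

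Several members stood far apart on F + LFD replicates 3 and 4. Wnt10a, a ligand of the pathway that signals through beta-catenin, read 7.55 and 5.39 there and was detected on no other array, where it lay between 2.09 and 3.86. Wif1 read 7.74 and 9.49 there, against 6.15 and 6.12 on F + LFD replicates 1 and 2. Nkd1 read 7.69 and 8.84, against 7.01 and 7.24, and of these 7.69 lay below M + LFD replicate 2 (7.87). On F + LFD replicate 4, Prox1, a homeobox protein of intestinal tumors, read 7.55, against 4.38 to 6.07 on the other arrays, and Notum read 9.09, its highest value of all arrays, while its lowest, 7.88, was on F + LFD replicate 3. Dkk2, a secreted antagonist detected on 3 arrays in all, also had its highest value on F + LFD replicate 4 (4.69). It did not stand apart there, with 4.63 on F(OVX) + LFD replicate 3, where it was not detected.

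Lef1 and Tcf7, TCF and LEF family members that are also expressed in T lymphocytes, were highest on the same arrays. Lef1 read 5.33, 5.16, 7.57 and 7.56 in F + LFD and 5.37, 4.99, 6.83 and 6.68 in F + HFD. Tcf7 read 6.05, 5.84, 7.64 and 7.93 in F + LFD and 6.43, 5.48, 7.13 and 7.21 in F + HFD. Replicates 3 and 4 were thus the higher ones in both diet groups, for both genes. B cell and plasma cell markers had a mean log2 level of 9.54, 9.47, 11.76 and 12.13 on the F + LFD arrays and of 10.67, 9.54, 11.58 and 11.07 on the F + HFD arrays. T cell and NK cell markers stood at 8.19, 7.97, 8.87 and 8.88 in F + LFD and at 7.75, 7.57, 8.05 and 8.83 in F + HFD. The part of lymphocytes in the levels of Lef1 and Tcf7 was not tested.

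**Figure D3:**
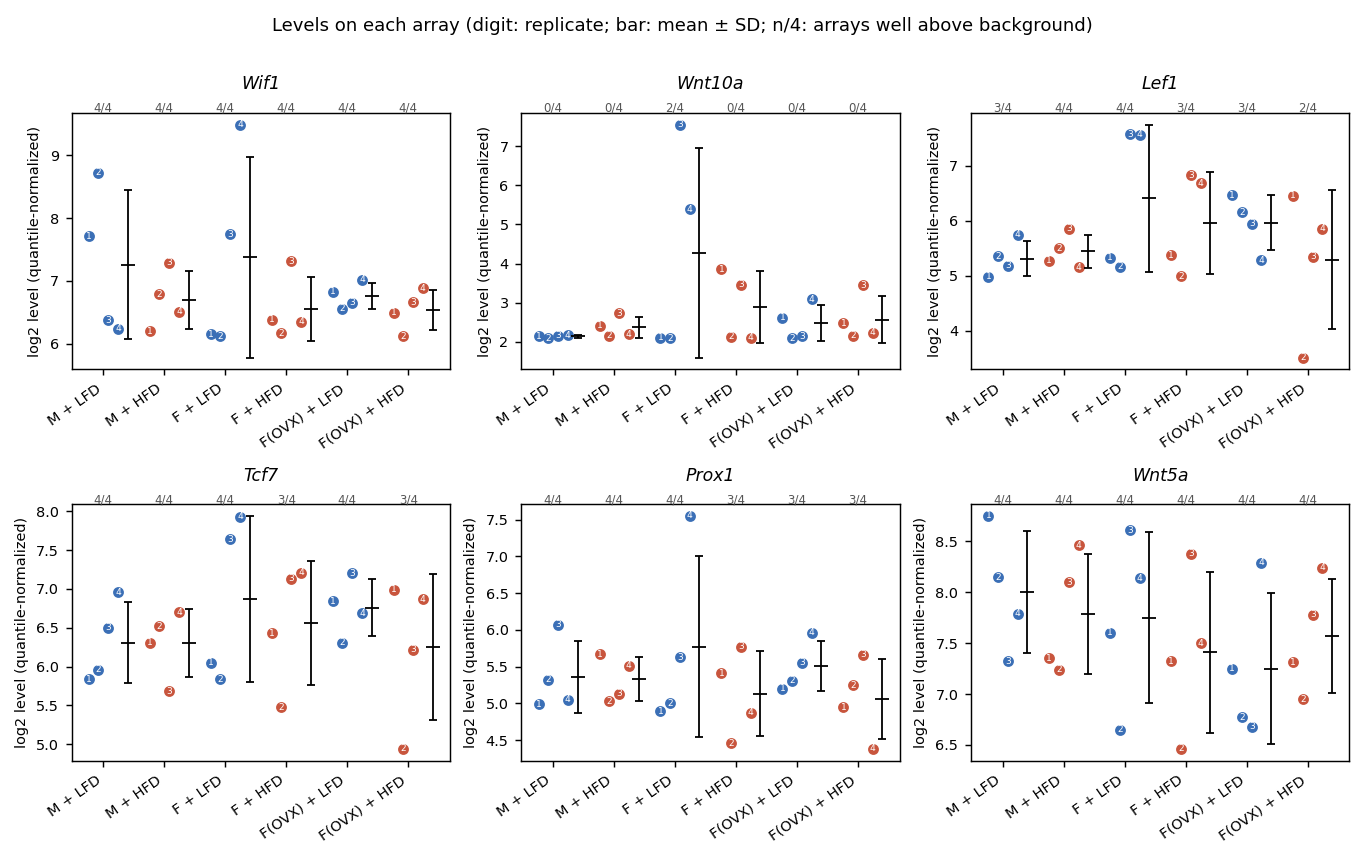
Log2 level of 6 members on each array, by group (blue LFD, red HFD), with the replicate number in each point, the mean ± SD of 4 arrays beside it and the number of arrays well above background on top. Wnt10a is detected on F + LFD replicates 3 and 4 alone (7.55 and 5.39), and Wif1 is high on F + LFD replicate 4 (9.49) and on M + LFD replicate 2 (8.72).

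In all, 14 of the 38 members detected on any array had their highest value of the 24 arrays on F + LFD replicate 3 or 4. The share of all genes was not counted, so a trait of the members cannot be told apart from one of these arrays. Fibroblast markers were also at their highest, with 11.93, on F + LFD replicate 3 and on F + HFD replicate 3. When both F + LFD arrays were left out, a choice made after seeing these values, 3 members were DEGs in females and all were higher in F + HFD. They were Sfrp5 at 1.18 (unadjusted p = 0.0102 by limma), Ascl2 at 0.97 (unadjusted p = 0.0431 by limma) and Rspo3, the R-spondin of the stroma, at 0.69 (unadjusted p = 0.0113 by limma). The median change of the members was then 0.18, and 3.28% of all genes were DEGs in that fit. Leaving out F + LFD replicate 3 by itself made Sfrp5 (1.13) and Rspo3 (0.84) DEGs, beside 2.11% of all genes.

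In OVX females, no member was a DEG between F(OVX) + HFD and F(OVX) + LFD. Limma called 0 of 30 members tested, beside 2.19% of all 19211 genes, and 1 had an unadjusted p under 0.05, beside 3.69%. The methods' t-test also called 0, beside 1.09%. The median change of the members was 0.01 in log2, with 16 higher and 14 lower, and the changes of members tested lay between -0.56 and 0.57.

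That 1 member was Nkd1, a feedback inhibitor that binds Dishevelled. It stood at 5.78, 6.59, 6.43 and 6.63 in F(OVX) + LFD and at 6.69, 7.30, 6.99 and 6.74 in F(OVX) + HFD. Every F(OVX) + HFD array lay above every F(OVX) + LFD array, by 0.06 at the closest, and the share of all genes that did not overlap was 2.3%. The exact permutation p of 0.0286, two-sided, only restates that the groups did not overlap. The change of 0.57 ± 0.23 (SE) in log2 had an unadjusted p of 0.0332 by limma and stayed just under 1.5-fold. It passed the thresholds in 5 of the 8 fits that left out 1 array, with changes up to 0.66.

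The other feedback inhibitors tested in OVX females were not DEGs. Rnf43 changed by -0.43 ± 0.22 (SE) in log2 (unadjusted p = 0.0908 by limma), Notum by 0.07 and Znrf3 by 0.07. Axin2 was below the detection needed for a test, at 4.08 ± 1.32 (SD, n = 4) in F(OVX) + LFD and 4.04 ± 0.89 in F(OVX) + HFD. Among the stem cell markers, Lgr5 stood at 6.95, 8.09, 7.26 and 8.39 in F(OVX) + LFD and at 7.33, 6.16, 7.47 and 7.48 in F(OVX) + HFD, so the groups overlapped. Its change of -0.56 ± 0.40 (SE) in log2 had an unadjusted p of 0.194 by limma, and Smoc2 changed by -0.43 ± 0.23 (SE).

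No target, antagonist or ligand was a DEG in OVX females. Ephb2 stood at 10.72, 10.33, 10.45 and 10.58 in F(OVX) + LFD and at 10.83, 10.74, 10.71 and 10.83 in F(OVX) + HFD, and the groups overlapped by 1 array. Its change of 0.26 ± 0.13 (SE) in log2 had an unadjusted p of 0.083 by limma and an exact permutation p of 0.0571, two-sided. Cd44 stood at 8.17, 6.44, 8.59 and 7.66 in F(OVX) + LFD and at 7.81, 8.17, 8.14 and 7.85 in F(OVX) + HFD, with its lowest value of all arrays on F(OVX) + LFD replicate 2. Myc changed by -0.12, Wif1 by -0.23, Sfrp1 by 0.28, Sfrp5 by 0.10, Dkk3 by -0.36 and Wnt5a by 0.32, none with an unadjusted p under 0.05 by limma. Ccnd1 changed by 0.37, and by 0.72 without F(OVX) + LFD replicate 4, where it then passed the thresholds. Smooth muscle markers were higher in F(OVX) + HFD, with 8 of 8 tested higher and 4 DEGs (Des, Cnn1, Actg2 and Tagln), and all 13 proliferation genes were higher with a median of 0.27 in log2 and 0 DEGs. Their part in the members' levels was not tested.

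**Figure D4:**
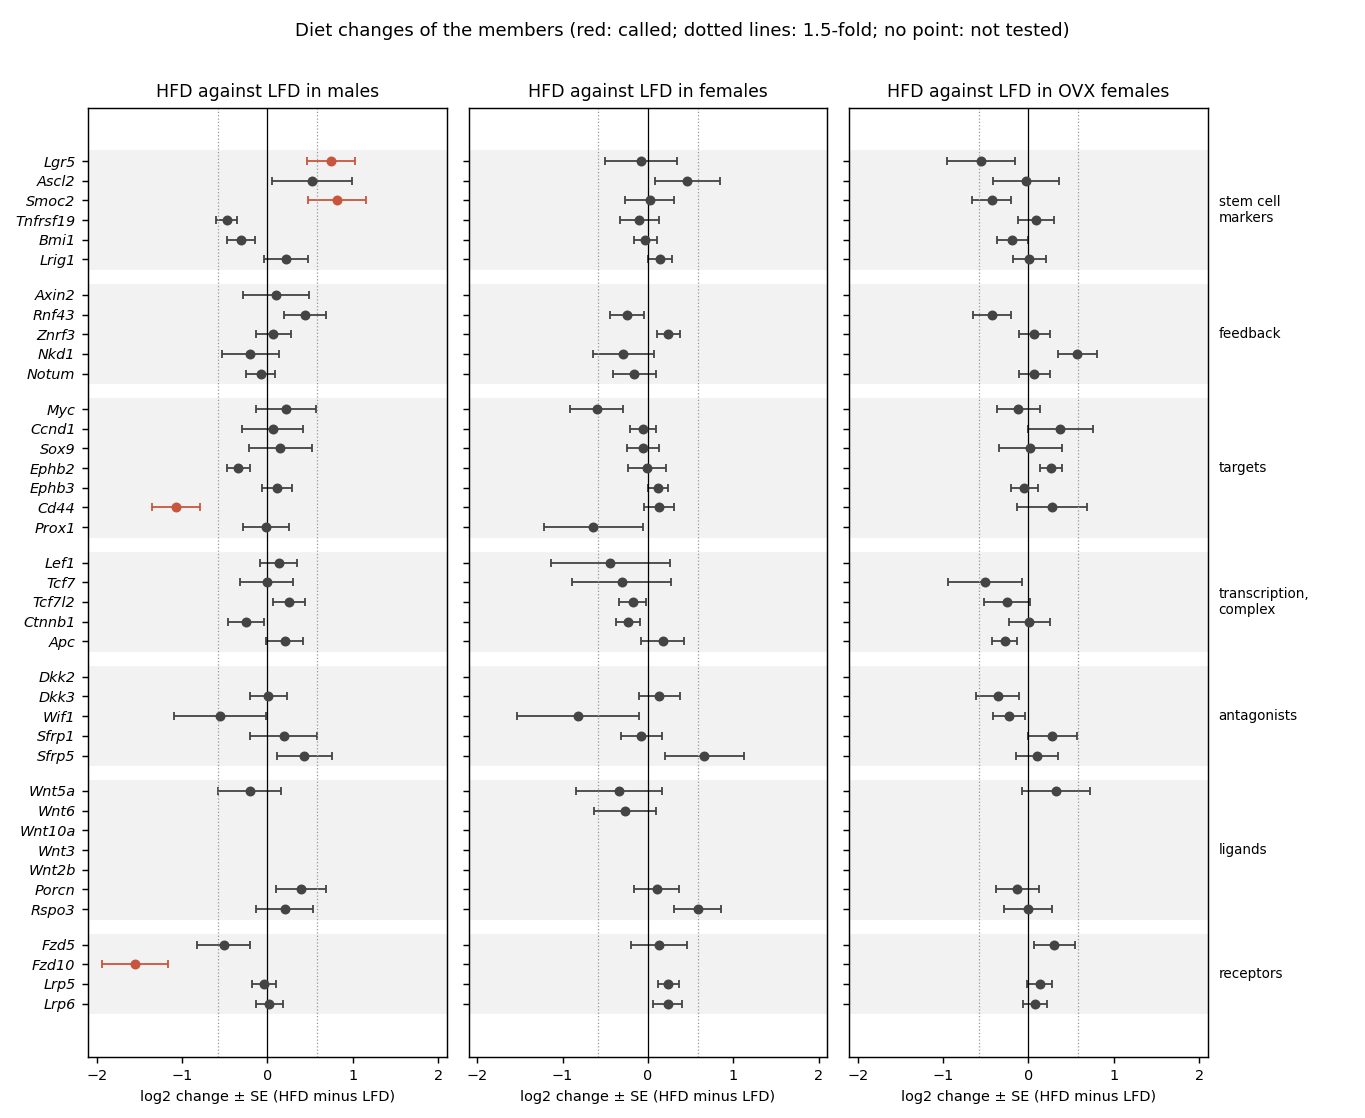
Change in log2 (HFD minus LFD) with its SE for the members tested in males, females and OVX females, in order of role, with DEGs in red and dotted lines at 1.5-fold. Red points are seen in males only (Lgr5, Smoc2, Cd44 and Fzd10), and Fzd10 has no point in females and OVX females because it was not tested there.

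A call in males and none in females does not show that the diets acted differently, so the difference between the diet effects was tested as a contrast in 1 fit of all 24 arrays, which held 35 members. The 2 contrasts with males share the male arrays. Between males and OVX females, 5 of 35 members differed by at least 1.5-fold at an unadjusted p under 0.05 by limma, beside 6.16% of all 22383 genes. Cd44 differed by -1.34 ± 0.46 (SE), Ephb2 by -0.60 ± 0.23, Lgr5 by 1.30 ± 0.57, Rnf43 by 0.87 ± 0.33 and Smoc2 by 1.24 ± 0.44, with adjusted p between 0.562 and 0.637 by limma. Without M + LFD replicates 1 and 2 there were 3 such members, with Cd44 at -1.12, Ephb2 at -0.71 and Lgr5 at 1.45, while Smoc2 was at 0.69 (unadjusted p = 0.125 by limma) and Rnf43 at 0.80 (unadjusted p = 0.0533 by limma). With the Hox score as a covariate, Ephb2 at -0.61 was the 1 member left. The share of all genes was not counted in these refits.

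Between males and females, 2 of 35 members differed, beside 2.95% of all genes. Cd44 differed by -1.20 ± 0.46 (SE) and Rnf43 by 0.70 ± 0.33, each with an adjusted p of 0.975 by limma. Without M + LFD replicates 1 and 2, Cd44 differed by -0.97 (unadjusted p = 0.0812 by limma) and no member passed, with the share of all genes again not counted. Between OVX females and females, 0 of 35 members differed, beside 1.52% of all genes. Averaged over males, females and OVX females, Fzd10 was the 1 member past the thresholds, at -0.76 ± 0.35 (SE) in log2 with an unadjusted p of 0.0415 and an adjusted p of 0.984 by limma, beside 0.773% of all genes. Fzd10 entered this fit only through M + LFD, where it is high, so the filter favored the male change (-1.55) within this average. Its change was -0.52 in females and -0.20 in OVX females, where it was not tested. It was not detected on any OVX array, so there its values lie near background.

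**Figure D5:**
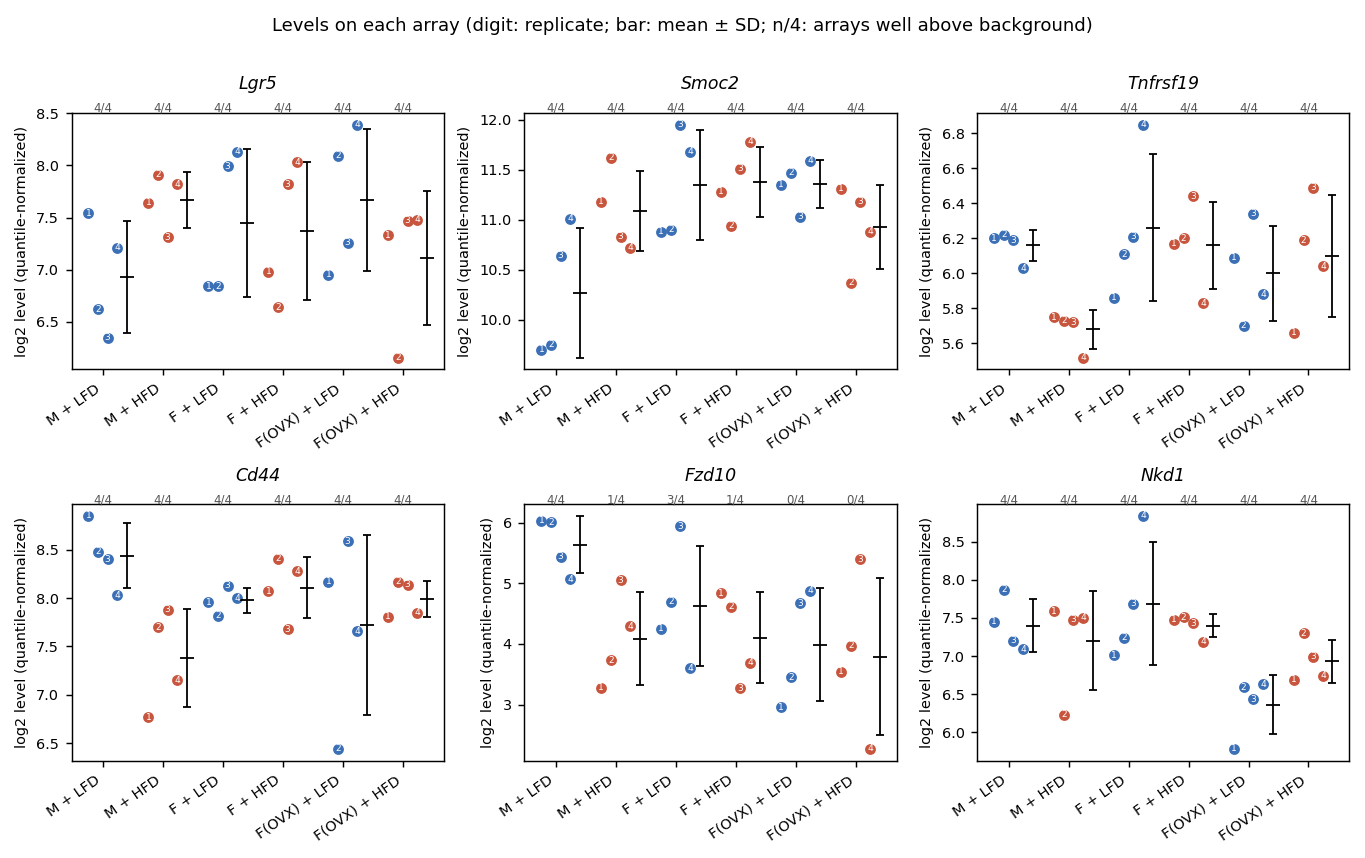
Log2 level of 6 members on each array, by group (blue LFD, red HFD), with the replicate number in each point, the mean ± SD of 4 arrays beside it and the number of arrays well above background on top. In males all M + HFD arrays lie below all M + LFD arrays for Tnfrsf19, Cd44 and Fzd10, and in OVX females all HFD arrays lie above all LFD arrays for Nkd1, while Smoc2 is lowest on M + LFD replicates 1 and 2 (9.70 and 9.75).

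Levels were also compared over all 6 groups at once, which mixes diet, sex, surgery and slide. By limma's F test 0 of 35 members had an adjusted p under 0.05, beside 0.925% of all genes, and 8 had an unadjusted p under 0.05, beside 12.2%. They were Lrp5, Dkk3, Nkd1, Znrf3, Ephb2, Smoc2, Axin2 and Apc. Lrp5, a co-receptor of Frizzled, had the smallest adjusted p, 0.0816 by limma. It lay between 8.14 and 8.51 on male arrays (median 8.38), between 7.71 and 8.19 on female arrays (median 7.97) and between 7.77 and 8.27 on OVX arrays (median 8.11), so that the male arrays were higher with a small overlap.

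The medians of the other 7 ran in different orders over the slides. Lrp5 and the members named next were picked by this p, after their values were seen. Nkd1 had a median of 7.47 on male arrays, 7.45 on female arrays and 6.66 on OVX arrays, and OVX arrays reached at most 7.30. Dkk3 had medians of 9.91, 9.87 and 9.20 in the same order of slides, also lowest on OVX arrays. Znrf3 was lowest in males (median 7.71, against 8.17 and 8.04), as was Apc, the scaffold of the destruction complex (5.66, against 5.95 and 6.20). Ephb2 was highest in males (10.95, against 10.78 and 10.71), and Axin2 had a median of 5.57 on male, 4.75 on female and 3.91 on OVX arrays, with detection on 8, 5 and 3 arrays. Axin2 entered this test only through the male groups, where it is high, so the filter favored a difference, and its other values lie near background. Smoc2 had medians of 10.78, 11.39 and 11.25. Notum, not among the 8 (unadjusted p = 0.0518 by limma), had medians of 8.74, 8.11 and 8.22. Whether sex, surgery or slide sets these orders cannot be told apart.

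Beyond the members, a list of 70 other Wnt genes held DEGs at about the share of all genes. In males 48 were tested and 2 were DEGs (4.17%, beside 4.3% of all genes), Sfrp2, a secreted Wnt decoy of fibroblasts, at 2.03 ± 0.89 (SE) in log2 and Fzd8, a receptor, at -0.66 ± 0.27. In females 1 of 50 (2%, beside 1.2%) was a DEG, Dact1, a Dishevelled-binding protein, at 0.91 ± 0.31, and in OVX females 1 of 46 (2.17%, beside 2.19%), Frzb, a secreted decoy, at 0.80 ± 0.25. The list's median change was -0.01, 0.03 and 0.03, beside 0.01, 0 and 0.01 for all genes. Of 15 genes of the BMP pathway and crypt niche, Bmp2, a BMP ligand, was the 1 DEG in males and was higher in M + HFD (1.12 ± 0.36), and 0 were DEGs in females. Of 14 other stem cell and regeneration genes, Msi1, an RNA-binding protein, was higher (0.84 ± 0.23) and Aldh1a1, a retinaldehyde dehydrogenase, lower (-2.27 ± 0.83) in M + HFD, with 0 DEGs in both other comparisons. None of these 3 lists held a DEG in males by limma once M + LFD replicates 1 and 2 were left out.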

How the data were processed

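Colon RNA of 24 mice was hybridized by the authors to 1-color Agilent arrays, and per the labels the spots were extracted with Agilent Feature Extraction 11.0.1.1. The files deposited by the authors give each spot's intensity (linear, corrected for background and spatial trend within the array, not normalized between arrays) and flags of 0 or 1 that mark spots well above background (unit other). The methods name more animals per group than the 4 that the labels give. No coordinates are given for probes, because the array's annotation (mm9) and the gene table (GRCm38.p6) use different builds. After control spots and flagged outlier spots were removed, processed signals were put on the log2 scale, quantile-normalized as in the methods and averaged per probe. Accessions matched a symbol of the RefSeq gene table for 32994 of 56605 probes (58.3%).

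HFD was compared with LFD on 8 arrays each with limma 3.58.1 (lmFit, eBayes; R 4.3.3), fitted on all genes tested, with Benjamini-Hochberg adjustment over all of them, and single members by exact permutation. Differences between diet effects came from 1 fit of 24 arrays. The members, gene lists and tests were chosen with earlier results of these data known. Members named in full are the DEGs, those whose groups did not overlap and a list of 13 set by name. Other members and genes were named after their values were seen. Same-numbered female arrays deviated together (r = 0.25, 0.39, 0.51 and 0.23 over all genes), so a fit with the replicate number as a block is given beside the fit without it, which is the one the methods imply. The pairing comes from these correlations and the shared slide column, not from the labels. Alternatives were the methods' t-test, scaling to the 75th percentile, normexp (offset 50), other filters, the mean of all probes, the block, a Hox score as covariate and left-out arrays. The tests were tried on simulated data. With 4 arrays per group, precision is limited by their number, and p-values measure the spread between these arrays. Promoters were taken from RefSeq for 24 members.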

Additional observations from a re-analysis of the deposited data

Results flagged for a closer look

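In groups of 4 arrays that were all well above background, 11 of 184 combinations of member and group held 1 array farther from the rest than Dixon's 95% limit, where chance gives about 1 in 20, or 9.2. Stem cell markers among them were Lgr5 at 6.16 on F(OVX) + HFD replicate 2 (the others 7.33 to 7.48), Ascl2 at 10.84 on M + LFD replicate 4 (10.56 to 10.60), Lrig1 at 11.87 on F(OVX) + LFD replicate 3 (12.48 to 12.56), and Tnfrsf19 at 6.03 on M + LFD replicate 4 (6.19 to 6.22) and at 5.52 on M + HFD replicate 4 (5.72 to 5.75). Among feedback inhibitors and targets, Nkd1 read 6.23 on M + HFD replicate 2 (7.48 to 7.59), Myc 7.82 on F + HFD replicate 4 (9.01 to 9.21) and Ephb2 10.92 on M + LFD replicate 1 (11.30 to 11.32). Sox9 read 10.29 on M + HFD replicate 1 (9.09 to 9.24) and 8.86 on F + HFD replicate 4 (9.46 to 9.58), and Ephb3 13.10 on M + HFD replicate 2 (13.49 to 13.54).

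The diet effect differed between males and OVX females, by the contrast over 24 arrays in limma at an unadjusted p under 0.05, for Cd44 (-1.34), Ephb2 (-0.60), Lgr5 (1.30), Rnf43 (0.87) and Smoc2 (1.24), and between males and females for Cd44 (-1.20) and Rnf43 (0.70). None passed the adjustment over all genes.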

How the results depend on the processing

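The 4 DEGs among the members in males became 2 under the methods' t-test (beside 2.38% of all genes), 2 under normexp (2.76%), 1 with the Hox score as a covariate (3.49%), 3 without M + LFD replicates 1 and 2 (4.13%), and 2 to 5 when 1 array was left out (2.84% to 7.19%). Normexp left Cd44 and Smoc2, the t-test Cd44 and Fzd10, and the covariate Lgr5. Cd44 stayed a DEG in 17 of 18 alternatives, Fzd10 in 15 of 17, Lgr5 in 11 of 18 and Smoc2 in 8 of 18. In females the count of 0 became 1 with the replicate block (Myc, beside 2.66% of all genes). It was 0 to 2 with 1 array left out (0.666% to 2.94%), and 3 without F + LFD replicates 3 and 4 (3.28%), a choice made after seeing the data. In OVX females it was 0 to 2 with 1 array left out (1.08% to 3.57%). The count of members whose diet effect differed between males and females (2) was 0 with the Hox score, 0 without M + LFD replicates 1 and 2, and 1 to 3 with 1 array left out. Between males and OVX females (5) it was 1 with the Hox score, 3 without M + LFD replicates 1 and 2, and 3 to 7 with 1 array left out. Between OVX females and females (0) it was 0 to 2. For these contrasts the share of all genes was not counted under the alternatives. The cause was not tested. The replicate block changed 1 other call, that of Smoc2 in males (unadjusted p = 0.0984 by limma). Replicate numbers did not pair the arrays in males (r = 0.01, -0.22, 0.06 and 0). In OVX females (r = 0.31, -0.08, 0.26 and 0.21) all but replicate 2 were near the lower female values, so pairing there is unclear. No DEG changed sign under any alternative. At least 1 alternative changed the sign of 20 of 34 members in males, 22 of 33 in females and 17 of 30 after OVX. DEGs were picked for a change of 1.5-fold or more, so fewer changes of sign follow from that choice. The share of all genes was not counted. Of members that were not DEGs, 28 of 30 in males, 29 of 33 in females and 28 of 30 in OVX females were DEGs under no alternative. Signal over background limits Axin2, Fzd10, Dkk2, Wnt2b, Wnt3, Wnt6 and Wnt10a.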
